A study of Mus musculus with 23 samples.

Results

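DC2 cells from the spleens of TLI treated mice were compared with DC2 cells from untreated mice. The comparison takes in every library of the series that carries the subset name DC2 (CD8lo CD172hi in the labels), which is 5 of 23 libraries: 3 from TLI treated mice (pools 1, 3 and 4) and 2 from untreated mice (pools 1 and 2). All mice were wild type BALB/c, no allele differed between the groups, and each library was made from the sorted spleen cells of a pool of mice. TLI is not spelled out in the labels. As an abbreviation it usually means total lymphoid irradiation, a radiation treatment of lymphoid tissues used in conditioning for transplants. The labels also give no dose, time after treatment, age or number of mice in a pool. A DC2 library of TLI pool 2 was not analysed here. The labels assign both untreated libraries and TLI pool 1 to batch 1 and the other TLI libraries to batch 2, so that TLI pool 1 is the only treated library that can be set against the untreated ones within a batch. The other 18 libraries hold DC1a, DC1b and DC3 cells of the same treatments. A pool is the replicate, and the p-values measure the spread between pools.

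DC2 cells are conventional dendritic cells, and they present antigen on MHC class II to CD4+ T cells. In the article DC1a and DC1b cells did so as well. They are recognised by high CD172 (SIRPα, encoded by Sirpa), by the transcription factor Irf4 and by C-type lectins such as DCIR2 (encoded by Clec4a4), whereas DC1 cells carry CD8, Xcr1 and Clec9a and depend on Irf8 and Batf3. Dendritic cells at rest and dendritic cells that have been activated differ in their costimulatory ligands, their chemokine receptors and the early genes of the NF-kB pathway.

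Total counts per DC2 library lay between 19256447 and 33191440, and a count of 3 in a library, taken as the floor, corresponded to 0.0904 to 0.156 CPM (counts per 1000000 counts of the library). Genes with more than 3 counts numbered 16774 and 16358 in the untreated libraries, 16515 in TLI pool 1, and 15148 and 15016 in TLI pools 3 and 4. Across 10138 genes with a mean of at least 5 CPM, log2(CPM + 0.5) correlated at r = 0.737 between the untreated libraries, at 0.680 and 0.677 between them and TLI pool 1, and at 0.553 to 0.589 between them and TLI pools 3 and 4. These correlations are over genes, which are not independent replicates. TLI pool 1 therefore stood nearer to the untreated libraries of its own batch than to TLI pools 3 and 4, with which it correlated at 0.590 and 0.608. In the fit of all 23 libraries the batch term alone passed the threshold in 3413 of 19597 genes.

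The sorted identity was checked first. The gate gene Sirpa was at 252 and 196 CPM in the untreated libraries but at 36.7, 9.22 and 309 CPM in TLI pools 1, 3 and 4, so that pools 1 and 3 lay below both untreated libraries and pool 4 above them. Cd8a was at 1.06 CPM or less in all 5 libraries and Cd8b1 at 0.156 CPM or less. Clec4a4 was at 298 and 243 CPM in untreated cells and at 107, 136 and 141 CPM in TLI cells, and Cd209a, another DC2 lectin, was at 853 CPM or more in every library. Irf4 was at 35.0 and 167 CPM in untreated and at 49.6, 11.2 and 121 CPM in TLI cells. Itgam (CD11b) was at 29.7 and 35.8 CPM in untreated cells and at 34.7, 0.211 and 94.2 CPM in TLI pools 1, 3 and 4. Cd4 was at 123 and 30.5 CPM against 21.7, 3.13 and 10.6 CPM, without overlap. Esam was at 31.3 and 0 CPM in untreated cells and at 0 CPM in all TLI libraries. Of the 16 cDC2 genes, 3 had all TLI libraries above both untreated libraries and 3 had all below. The DC1 gene Xcr1 was detected in each library at 4.47 to 37.5 CPM. Summed over the 16 cDC2 genes the level was 2413 and 2123 CPM in untreated and 1785, 2861 and 3009 CPM in TLI cells, and over the 10 pan-DC genes 70258 and 75556 CPM against 56335, 36085 and 39388 CPM. The pan-DC sum was lower in all 3 TLI libraries, and most of it was MHC class II transcripts and Cd74. No gene of these lists passed the threshold used below, and the median fitted log2 fold change was 0.14 over the cDC2 and -0.02 over the pan-DC genes.

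Markers of other blood cells moved with treatment and with 1 library. TLI pool 1 held 48226 CPM of erythroid transcripts (10 genes, mostly globins), against 2292 and 88.4 CPM in the untreated libraries and 1667 and 1719 CPM in TLI pools 3 and 4. It also held the highest sums of neutrophil genes (2363 CPM, against 2.44 and 66.1 CPM in untreated cells and 216 and 146 CPM in pools 3 and 4) and of monocyte and macrophage genes (15634 CPM, against 5832 and 5484 CPM in untreated cells and 6131 and 7498 CPM in pools 3 and 4). Plasma cell genes, led by Jchain and Igha, summed to 94.5 and 8.52 CPM in untreated cells and to 5189, 466 and 1972 CPM in TLI cells, without overlap. Of 5 tested, 3 had an unadjusted p under 0.05 for a higher and 2 for a lower level in TLI cells, and 0 in either direction by the alternative test limma voom. The 2 lower genes, Sdc1 and Ighg2b, were at 5.66 CPM or less in all 5 libraries. B cell genes, led by Igkc, summed to 1243 and 335 CPM in untreated cells and to 8890, 1316 and 13960 CPM in TLI cells, while Pax5, the transcription factor that defines B cells, stayed at 0.773 CPM or less in all 5 libraries. T cell genes summed to 181 CPM in TLI pool 1 and to 40.1 CPM or less elsewhere, and NK cell genes to 67.2 and 85.3 CPM in untreated cells and 408, 590 and 295 CPM in TLI cells, led by Klrk1. Of the 10 T cell, 10 NK cell and 10 erythroid genes, 7, 6 and 8 had an unadjusted p under 0.05 for a higher level in TLI cells, where 4.32% of all genes did, and none passed the adjusted threshold. Without TLI pool 1 these counts were 3, 3 and 6 in a fit that keeps the batch term, and with no batch term 1, 2 and 1. The median of the batch term over these lists was -7.11, -6.55 and -6.58 (log2). With TLI pools of batch 2 alone in DC2 and no batch term the counts were 1, 1 and 0. The part of these transcripts in the differences described next was not tested beyond the fits without TLI pool 1, and in sorted bulk samples a change in the number of cells of a type cannot be told apart from a change in RNA per cell.

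**Figure D1:**
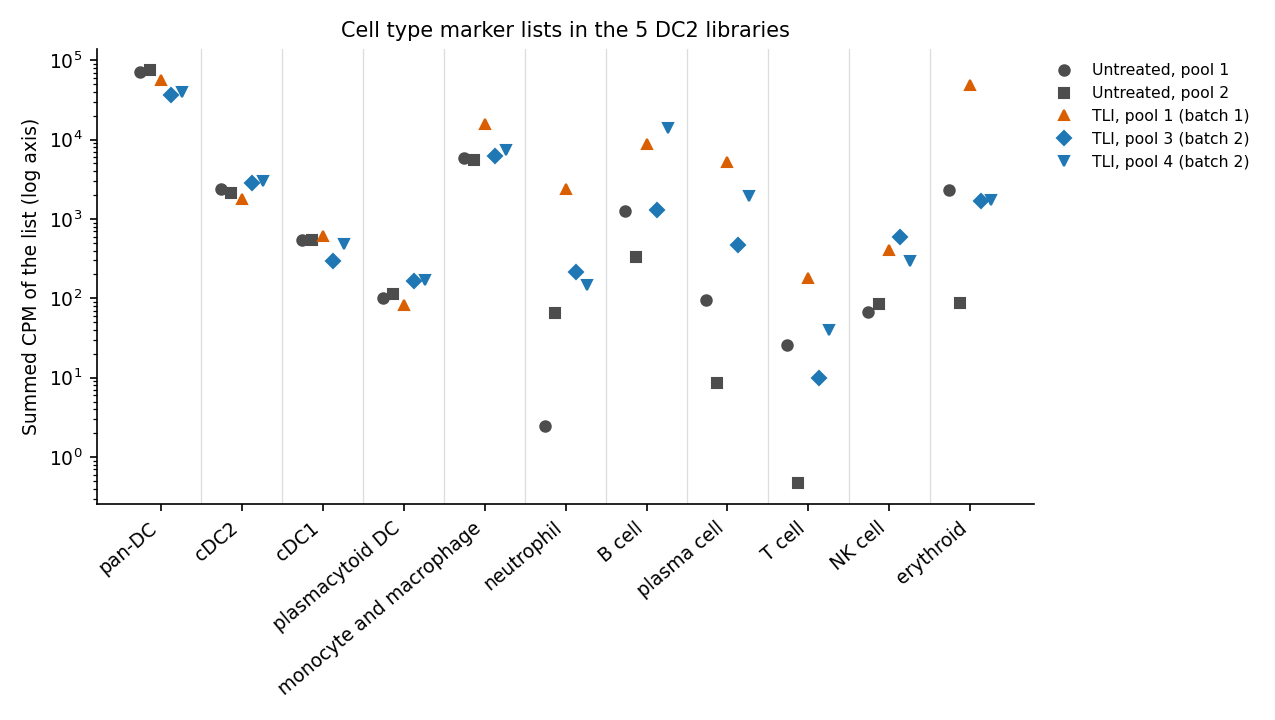
Summed CPM (log axis) of 11 lists of cell type markers in the 2 untreated DC2 libraries (grey) and the 3 TLI DC2 libraries (orange, batch 1; blue, batch 2). The DC lists spread less between the 5 libraries than the lists of other cells, and TLI pool 1 stands above the other libraries for erythroid (48226 CPM), neutrophil, monocyte and macrophage, plasma cell and T cell genes.

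In the comparison of TLI with untreated DC2 cells, 8 genes were higher and 4 genes lower in TLI cells. These 12 genes are 0.0612% of the 19597 tested (edgeR's quasi-likelihood test in a fit of all 23 libraries with a batch term, Benjamini-Hochberg adjusted p under 0.05), and 1765 genes had an unadjusted p under 0.05. In all 12 the TLI libraries did not overlap the untreated ones. Non-overlap was itself common, since all 3 TLI libraries lay above both untreated libraries in 10.6% of the genes tested and below both in 14.6%. The median fitted log2 fold change over all genes was 0.02. The 12 genes encode surface receptors (Clec9a, Cd79b and Cd180), ubiquitin ligase components (Cul4b and Klhl6), enzymes (Gstp2 and Naaa), proteins of trafficking and of the cytoskeleton (Dtnbp1, Tbc1d4 and Vim), a mitochondrial carrier (Slc25a45) and a predicted gene (Gm6377).

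**Figure D2:**
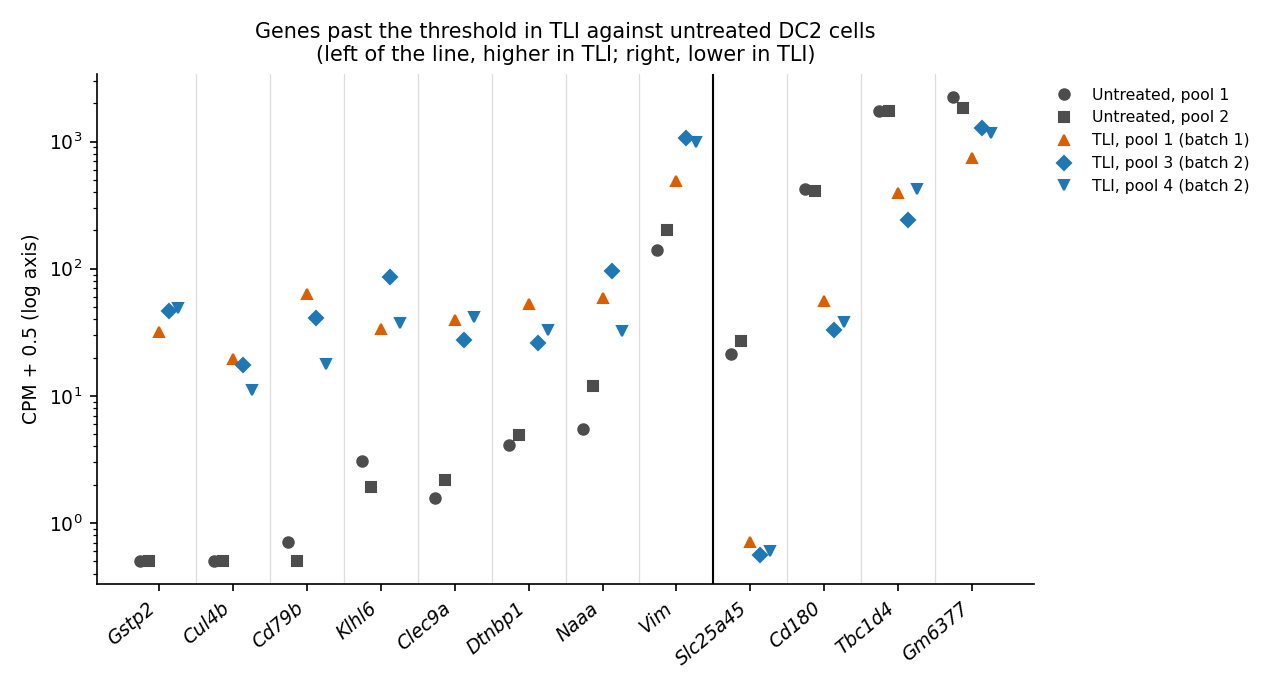
CPM + 0.5 (log axis) of the 12 genes past the threshold in each DC2 library, with the 8 higher in TLI left of the vertical line and the 4 lower in TLI right of it. Grey points are untreated pools 1 and 2, the orange triangle is TLI pool 1 of batch 1 and blue points are TLI pools 3 and 4 of batch 2. Every TLI point lies on 1 side of both untreated points, and TLI pool 1 lies on the same side as pools 3 and 4.

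Clec9a encodes DNGR-1, the lectin by which DC1 cells sense the actin of dead cells. It was at 1.06 and 1.66 CPM in the untreated libraries and at 38.9, 27.2 and 41.2 CPM in TLI pools 1, 3 and 4. The means were 1.36 ± 0.427 CPM (SD, n = 2) and 35.8 ± 7.53 CPM (SD, n = 3), a difference of 26.3 times, with a fitted log2 fold change of 4.56 ± 0.42 (SE) and an adjusted p of 4.65e-05 by edgeR's quasi-likelihood test. TLI pool 1 alone, in the batch of the untreated libraries, was 28.6 times their mean. The gene lies on the plus strand of chromosome 6 (GRCm38, chr6:129408862-129424763) and shares exon sequence with Clec1b on the same strand, which was at 3.5 and 16.7 CPM in untreated and 21.1, 28.1 and 18.8 CPM in TLI cells, so the split of reads between both genes is uncertain. Among the other DC1 genes, Xcr1 had overlapping groups (17.3 and 25.8 against 4.47, 19.4 and 37.5 CPM), Batf3 was at 168 and 139 CPM in untreated and at 113, 45.9 and 111 CPM in TLI cells, and Ly75 (DEC-205) was at 33.5 and 29.2 against 0.553, 5.27 and 8.52 CPM. Irf8 was at 1.63 and 35.4 CPM in untreated and at 74.8, 35.3 and 34.8 CPM in TLI cells (fitted log2 fold change 1.73, unadjusted p = 0.0473 by edgeR's quasi-likelihood test), and Cd24a at 2.24 and 82.7 against 184, 70.7 and 77.9 CPM (1.72), both with overlapping groups. Of the 12 DC1 genes, 1 was called higher and 0 lower, 2 had an unadjusted p under 0.05 in each direction (4.32% of all genes higher, 4.69% lower), and the median fitted log2 fold change was 0.11, or -0.42 with genes at the floor set to their bound.

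Cd180 was the receptor that fell. It encodes RP105, a Toll-like receptor homologue without a signalling domain that works with MD-1 (encoded by Ly86). Cd180 was at 426 and 412 CPM in the untreated libraries and at 54.9, 32.2 and 37.8 CPM in TLI pools 1, 3 and 4. The means of 419 ± 9.60 CPM (SD, n = 2) and 41.6 ± 11.8 CPM (SD, n = 3) differed by 10.1 times, the fitted log2 fold change was -3.18 ± 0.30 (SE) and the adjusted p by edgeR's quasi-likelihood test was 5.45e-05. TLI pool 1 alone was 7.63 times below the untreated mean. Its partner Ly86 was at 864 and 788 CPM in untreated cells and at 756, 910 and 1251 CPM in TLI cells, with overlapping groups and a fitted log2 fold change of -0.07 ± 0.27 (SE). Cd180 lies on the plus strand of chromosome 13 (chr13:102693558-102739629) and overlaps exons of Mast4 on the other strand. Counting by strand is not stated, so their reads cannot be told apart, and Mast4 was at 99.3 and 97.8 CPM in untreated and at 36.6, 14.1 and 14.7 CPM in TLI cells.

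Cd79b, the Igβ chain of the B cell receptor complex, had 5 and 0 counts in the untreated libraries and 1473, 1338 and 506 counts in TLI pools 1, 3 and 4, that is 0.203 and 0 CPM against 62.6, 40.3 and 17.4 CPM. The ratio of pooled counts over pooled library totals was 339, with a 95% exact interval of 145 to 1046 that covers counting error only, and the adjusted p by edgeR's quasi-likelihood test was 0.0402. Its partner Cd79a was at 7 and 1.66 CPM in untreated and at 27.0, 4.16 and 1.41 CPM in TLI cells, with overlap. Cd79b was the only B cell gene of 11 past the threshold. Igkc ran from 41.3 to 844 CPM in untreated cells and from 985 to 13023 CPM in TLI cells, Ighd was at 5.41 and 1.04 CPM against 0.170 CPM or less, Ms4a1 (CD20) was at 8.34 and 0 CPM against 1.19 CPM or less, and the median fitted log2 fold change of the 11 genes was -0.93. That median was 0.82 without untreated pool 1, -0.18 without untreated pool 2, -0.23 without TLI pool 1 and -0.00060 with no batch term, so no direction is read from it. The ratio of Cd79b to immunoglobulin transcripts was not constant over the TLI libraries: pool 4 held the most Igkc and the least Cd79b.

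Gstp2 had the smallest adjusted p (2.19e-07 by edgeR's quasi-likelihood test). It encodes a glutathione S-transferase of the pi class, which conjugates glutathione to reactive compounds. It had 0 counts in both untreated DC2 libraries and was at 31.1, 45.8 and 48.4 CPM in TLI pools 1, 3 and 4, which is at least 268 times the higher untreated floor of 0.156 CPM. The gene lies beside a near-identical copy, Gstp1, on the minus strand of chromosome 19 (Gstp2, chr19:4040285-4046023). The coding sequences of the transcripts Gstp1-201 and Gstp2-201 in GENCODE M21 are 633 bases long and differ at 12 positions, an identity of 98.1%. The first 60 coding bases, where the copies differ most, are printed, since reads of the coding sequence that cover none of the 12 positions fit both genes. Untranslated sequence was not compared. These bases lie, with the intron between them, within chr19:4037374-4037863 in Gstp1 and chr19:4041668-4042165 in Gstp2 (GRCm38, minus strand), and capitals mark the 6 bases that differ.
Gstp1: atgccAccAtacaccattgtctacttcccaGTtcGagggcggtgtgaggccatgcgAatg
Gstp2: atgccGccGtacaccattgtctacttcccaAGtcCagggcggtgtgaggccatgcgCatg
Gstp1 itself was at 175 and 113 CPM in untreated and at 170, 226 and 240 CPM in TLI cells, with overlapping groups (adjusted p = 0.470, edgeR's quasi-likelihood test). The ratio of Gstp2 to Gstp1 counts lay between 0.164 and 0.235 in the 21 libraries other than untreated DC2, and was 0 in the untreated DC2 libraries. The sum of both genes, which does not depend on how reads were divided between them, was 144 ± 43.6 CPM (SD, n = 2) in untreated and 254 ± 46.2 CPM (SD, n = 3) in TLI cells, 1.77 times higher. The split between the copies is therefore uncertain.

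The ubiquitin ligase genes were also low in untreated cells, Cul4b at the floor and Klhl6 above it. Cul4b, a cullin scaffold of the CRL4 ubiquitin ligases (X chromosome, chrX:38533274-38576196), had 0 counts in both untreated libraries and was at 18.9, 16.9 and 10.6 CPM in TLI pools 1, 3 and 4, at least 99.2 times the untreated floor (adjusted p = 0.00436, edgeR's quasi-likelihood test). Its paralog Cul4a was at 25.3 and 20.1 CPM against 12.8, 13.0 and 18.1 CPM. Klhl6, an adaptor of the CUL3 ubiquitin ligases known from B cells, was at 2.56 and 1.40 CPM in untreated and at 33.3, 84.9 and 37.0 CPM in TLI cells, a fitted log2 fold change of 5.01 ± 0.75 (SE) with an adjusted p of 0.0146 by the same test. TLI pool 1 alone was 16.8 times the untreated mean.

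Of the other genes that rose, Dtnbp1 (dysbindin, a subunit of the BLOC-1 complex of endosomal sorting) was at 3.62 and 4.41 CPM in untreated and at 52.6, 25.7 and 32.2 CPM in TLI cells. Naaa, a lysosomal amidase that degrades N-acylethanolamines, was at 5 and 11.5 CPM in untreated and at 58.0, 95.2 and 32.1 CPM in TLI cells. Vim, the intermediate filament protein vimentin, was the most abundant of the 8, at 140 and 203 CPM in untreated and at 490, 1060 and 991 CPM in TLI cells. Their fitted log2 fold changes were 3.95 ± 0.69, 3.44 ± 0.57 and 1.68 ± 0.26 (SE), with adjusted p-values of 0.0402, 0.0309 and 0.0189 by edgeR's quasi-likelihood test. In the batch of the untreated libraries, TLI pool 1 was 13.1, 7.01 and 2.85 times the untreated mean for Dtnbp1, Naaa and Vim.

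Of the genes that fell, Tbc1d4 (AS160, a Rab GTPase-activating protein of vesicle trafficking) was at 1742 and 1735 CPM in untreated cells and at 393, 241 and 424 CPM in TLI pools 1, 3 and 4. The means of 1738 ± 4.89 CPM (SD, n = 2) and 352 ± 97.6 CPM (SD, n = 3) differed by 4.93 times, with a fitted log2 fold change of -2.48 ± 0.38 (SE) and an adjusted p of 0.0158 by edgeR's quasi-likelihood test. Slc25a45, a member of the mitochondrial carrier family, had 514 and 510 counts in the untreated and 5, 2 and 3 counts in the TLI libraries (20.9 and 26.5 CPM against 0.213 CPM or less). The ratio of pooled counts over pooled library totals was 200.2 with a 95% exact interval of 108 to 419 for counting error, and the adjusted p was 0.0402 by the same test. Gm6377, a predicted gene on the X chromosome that shares exon sequence with Sh3bgrl on the same strand, was at 2254 and 1850 CPM against 746, 1269 and 1160 CPM (fitted log2 fold change -1.62 ± 0.27, adjusted p = 0.0309, edgeR's quasi-likelihood test). Sh3bgrl was at 202 and 181 CPM in untreated and at 201, 481 and 339 CPM in TLI cells, and the split of reads between them is uncertain.

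How far the calls rest on single libraries was examined by leaving each DC2 library out of the fit. Gstp2, Clec9a and Cd180 passed the threshold in all 5 of these fits, with a highest adjusted p of 3.56e-05, 0.00387 and 0.0014 by edgeR's quasi-likelihood test. The other 9 genes lost the call without untreated pool 1, with adjusted p-values from 0.0723 to 0.240. Without untreated pool 2, Cd79b, Dtnbp1, Klhl6 and Slc25a45 lost it (0.0671 to 0.200). Without TLI pool 3 or without TLI pool 4, Cd79b, Dtnbp1, Gm6377, Slc25a45, Tbc1d4 and Vim lost it (0.0510 to 0.133), and without TLI pool 1 only Slc25a45 (0.0670). When the fit was limited to batch 1, in which TLI pool 1 is the single treated DC2 library and is assumed to vary like the other groups, Gstp2 and Clec9a passed (adjusted p = 0.00115 for each), and the other 10 genes had adjusted p-values from 0.0546 to 0.431. In a fit of the 5 DC2 libraries alone no gene passed by edgeR's test, with or without the batch term, while 1062 and 632 genes had an unadjusted p under 0.05. Of the 12 genes, all passed with DESeq2, which called 876 genes. By limma voom, with or without the pool as a block, 7 passed, and Clec9a, Dtnbp1, Klhl6, Naaa and Vim did not (adjusted p from 0.0546 to 0.532 without the block). With no batch term in edgeR's test 7 passed, and Cd79b, Dtnbp1, Gm6377, Naaa and Vim did not (0.0635 to 0.615). The direction of the 12 genes was the same under every alternative in which they were tested.

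To make 10 genes in each direction, the fixed rule adds those nearest to the threshold, which did not pass it. Lgals3 (galectin-3) was at 129 and 169 CPM in untreated and at 448, 447 and 457 CPM in TLI cells, and Crip1, a small LIM protein of myeloid cells, at 397 and 307 CPM against 1215, 4539 and 4365 CPM (adjusted p = 0.0516 for each, edgeR's quasi-likelihood test). On the lower side, Malt1, the paracaspase of NF-kB signalling, was at 172 and 350 CPM in untreated and at 46.7, 28.2 and 26.1 CPM in TLI cells. Rgs2, a regulator of G protein signalling, was at 4867 and 4762 CPM against 2245, 2945 and 2392 CPM, and Dock10, a guanine nucleotide exchange factor, at 1652 and 1781 CPM against 729, 679 and 817 CPM. The remaining genes were Plekhm3 (219 and 296 CPM in untreated, 45.4 to 68.2 CPM in TLI cells), Utp11 (91.3 and 83.2 CPM, 24.1 to 34.9 CPM) and the metalloprotease gene Adam19 (191 and 149 CPM, 40.9 to 87.5 CPM). Their adjusted p-values ran from 0.0612 to 0.103 by the same test. The rule takes only genes without overlap between the groups. That TLI pool 1 lay on the same side as pools 3 and 4 in these 8 genes was therefore fixed by the selection and is no check within batch 1.

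In the 30 gene lists Clec9a (in the DC1 and the C-type lectin lists) and Cd79b (in the B cell list) passed the threshold of edgeR's quasi-likelihood test, and no other member did. Members named from here on were chosen after their values were seen. Lists are described by their counts and medians, which are no test. Members above or below are those with all 3 TLI libraries above or below both untreated libraries. Over all genes tested 10.6% lay above and 14.6% below, and 4.32% had an unadjusted p under 0.05 for a higher and 4.69% for a lower level. List counts near these shares are not read as a result about the list.

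Early response genes of the AP-1, EGR and NF-kB families were mostly lower in TLI cells. Of 27 genes, 19 had all 3 TLI libraries below both untreated libraries and 1 had all above them (14.6% and 10.6% of all genes), 0 passed the threshold, and 2 had an unadjusted p under 0.05, both lower. Nr4a2, an orphan nuclear receptor, was at 289 and 395 CPM in untreated and at 150, 30.5 and 28.0 CPM in TLI pools 1, 3 and 4. Relb, the NF-kB subunit needed for DC2 development, was at 153 and 110 CPM against 20.7, 48.9 and 58.0 CPM. The difference was smaller within batch 1, since the median log2 ratio to the untreated mean was -0.33 in TLI pool 1 and -1.24 and -1.36 in pools 3 and 4, over 26 members with a mean of at least 5 CPM, against -0.09, -0.19 and -0.19 over 10135 genes. With the batch term, whose median over the list was -0.87 (log2), the median fitted log2 fold change was -0.47.

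MHC class II genes, which carry peptides to CD4+ T cells, were also mostly lower in CPM. All 3 TLI libraries lay below both untreated libraries in 10 of 13 members and above them in 0 (14.6% and 10.6% of all genes). Cd74, the invariant chain, was at 34794 and 38464 CPM in untreated and at 26691, 16252 and 17207 CPM in TLI cells, and H2-Eb1, a β chain, at 8955 and 9826 CPM against 7087, 2881 and 3179 CPM. Ciita, the transactivator of the class II genes, was at 171 and 330 CPM against 148, 49.8 and 60.8 CPM, and H2-Oa, a chain of the modulator of peptide loading, at 906 and 866 CPM against 396, 140 and 172 CPM, with unadjusted p-values of 0.00551 and 0.0194. Within batch 1, 11 of 13 members were lower in TLI pool 1 than in the untreated mean, with a median log2 ratio of -0.44, against -1.01 and -0.94 in pools 3 and 4. With the batch term, whose median over the list was -1.41 (log2), the median fitted log2 fold change was 0.01, so the lower CPM of these genes in TLI pools 3 and 4 was not separate from batch in the fit. Among MHC class I genes, 2 of 13 members lay above and 2 below, and B2m was at 9281 and 6824 CPM in untreated and 7127, 8275 and 9786 CPM in TLI cells.

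Ligands for T cells lay on both sides. Of 20 members, 7 had all TLI libraries below both untreated ones and 3 above. Below in CPM were ligands of CD28 and other genes linked to activation. Cd86 was at 724 and 950 CPM in untreated and at 478, 128 and 177 CPM in TLI cells (unadjusted p = 0.00228). Cd80 was at 183 and 150 CPM against 75.0, 26.0 and 38.4 CPM, and Cd83 at 1544 and 2972 CPM against 1354, 244 and 199.6 CPM. Their unadjusted p-values were 0.316 and 0.343 by edgeR's quasi-likelihood test. Inhibitory genes were below as well, with Cd274 (PD-L1) at 230 and 214 CPM against 133, 57.4 and 32.1 CPM and Havcr2 (TIM-3) at 374 and 526 CPM against 190, 41.4 and 105 CPM. In both kinds TLI pool 1 was nearest to the untreated libraries. The 3 members above were Tnfrsf14, Lgals9 and Cd48. Tnfrsf14 (HVEM) was at 0 and 0.104 CPM in untreated and at 10.9, 53.1 and 21.7 CPM in TLI cells, and Lgals9 (galectin-9) at 76.5 and 38.5 CPM against 146, 108 and 87.5 CPM. The median fitted log2 fold change was -0.46, or -0.61 with genes at the floor set to their bound.

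C-type lectins were mostly higher. Beside Clec9a, 7 more of the 16 members had all TLI libraries above both untreated libraries and 1 had all below (10.6% and 14.6% of all genes). An unadjusted p under 0.05 was found for 5 members, all higher (4.32% of all genes). The member below was Clec4a4, which encodes the DC2 lectin DCIR2, at 298 and 243 CPM in untreated and at 107, 136 and 141 CPM in TLI cells. Mrc1, the mannose receptor, was at 0.203 and 9.50 CPM in untreated and at 134, 85.2 and 146 CPM in TLI cells. Clec12a, an inhibitory receptor for uric acid crystals, was at 237 and 178 CPM against 442, 827 and 790 CPM, Clec4b1 at 301 and 120 CPM against 554, 1083 and 1361 CPM, and Clec10a at 6.59 and 16 CPM against 45.0, 43.5 and 35.8 CPM. The median fitted log2 fold change was 1.28, and 1.40 without TLI pool 1. The median ratio to the untreated mean was of like size in each TLI library (log2 1.15, 1.02 and 1.54), and the median of the batch term was 0.03.

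**Figure D3:**
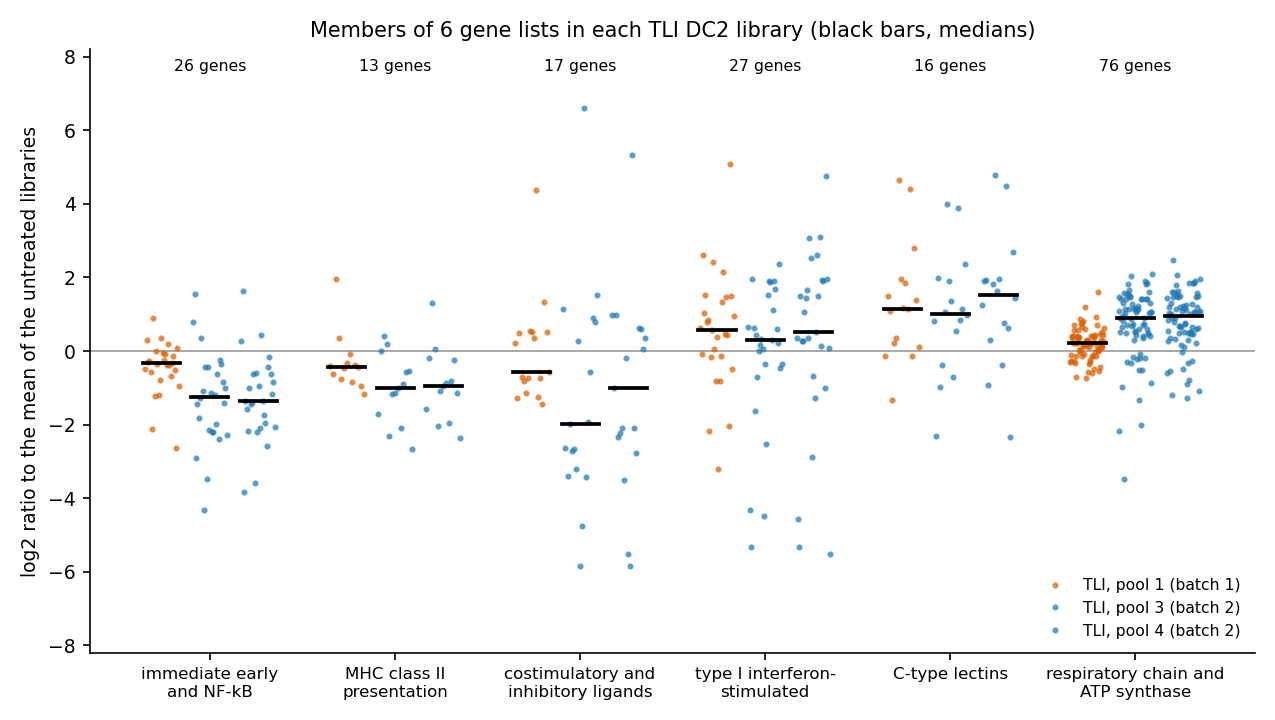
Log2 ratio of each list member to the mean of the untreated DC2 libraries, on log2(CPM + 0.5), in TLI pool 1 (orange, batch 1) and TLI pools 3 and 4 (blue, batch 2). Only members with a mean of at least 5 CPM are drawn, and black bars are medians. The bars of the immediate early and MHC class II lists lie nearer to 0 in pool 1 (-0.33 and -0.44) than in pools 3 and 4, and those of the C-type lectins lie above 1 in all 3 libraries.

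Interferon-stimulated genes varied gene by gene. Of 28 type I interferon-stimulated genes, 10 had all TLI libraries above both untreated libraries and 2 below (10.6% and 14.6% of all genes). An unadjusted p under 0.05 was found for 5, all higher (4.32% of all genes). The median fitted log2 fold change was 1.17, with a median batch term of -0.85 (log2). Over 27 members with a mean of at least 5 CPM, the median log2 ratio to the untreated mean was 0.58, 0.31 and 0.52 in TLI pools 1, 3 and 4. Ifi27l2a was at 712 and 579 CPM in untreated and at 1831, 3299 and 2510 CPM in TLI cells, Trim30a at 42.0 and 85.4 CPM against 162, 235 and 182 CPM, and Irf7, the regulator of interferon genes, at 29.1 and 19.1 CPM against 70.0, 37.6 and 29.3 CPM. Usp18, a negative regulator of interferon signalling, was below in all 3 TLI libraries (229 and 123 against 18.7, 30.0 and 72.1 CPM), and common reporters of the response overlapped between groups, such as Isg15 (27.1 and 17.7 against 43.8, 17.4 and 0 CPM) and Ifit1 (34.3 and 11.1 against 4.64, 13.7 and 62.2 CPM). Of 18 interferon gamma-induced genes, 4 lay above and 2 below, with Cxcl9 at 18.9 and 15.7 CPM in untreated and 25.6, 99.1 and 34.3 CPM in TLI cells.

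Monocyte and macrophage genes were the list with the most members at a low p. Of 17 tested, 12 had an unadjusted p under 0.05, all higher (4.32% of all genes), 7 had all TLI libraries above both untreated ones and 0 below, and the median fitted log2 fold change was 2.99. Ly6c2 was at 19.6 and 21.4 CPM in untreated and at 177, 64.6 and 112 CPM in TLI cells. Ccr2, the chemokine receptor of cells leaving the bone marrow, was at 49.7 and 37.2 CPM against 101, 428 and 437 CPM. Some macrophage genes were highest in 1 library: Vcam1 was at 421 CPM in TLI pool 1 against 15 and 21 CPM in pools 3 and 4 and 1.95 and 1.56 CPM in untreated cells, and Spic at 938 CPM against 102 and 55.1 CPM and 98.8 and 76.4 CPM. Without TLI pool 1, 9 of 17 had an unadjusted p under 0.05, all higher, and the median was 2.64. The count was 7 of 18 without untreated pool 2 and 6 of 17 with no batch term. With TLI pools of batch 2 alone in DC2 and no batch term it was 3 of 17, and the median was 1.11. The median of the batch term over the list was -2.71 (log2). The median log2 ratio to the untreated mean was 3.42 in pool 1 and 0.57 and 0.64 in pools 3 and 4. Of 14 neutrophil genes tested, 7 had an unadjusted p under 0.05, all higher, against 4 without TLI pool 1 and 1 by limma voom. With TLI pools of batch 2 alone in DC2 and no batch term 2 did. Ngp and Camp were carried by the same library, at 491 and 357 CPM in TLI pool 1 and at 0.392 CPM or less elsewhere. S100a8 was at 0.488 and 0 CPM in untreated and at 762, 131 and 64.8 CPM in TLI cells.

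Chemokine and cytokine genes went both ways. Ccl6 had the smallest p of the 24 chemokines and receptors, at 230 and 122 CPM in untreated and 465, 963 and 784 CPM in TLI cells (adjusted p = 0.0612, edgeR's quasi-likelihood test), and Ccl9 was at 84.3 and 30.8 CPM against 176, 296 and 432 CPM. Ccr7, which guides mature dendritic cells to the T cell zone, was at 490 and 501 CPM against 69.4, 2.14 and 20.6 CPM, and Ccl4 at 2592 and 2796 CPM against 1690, 512 and 451 CPM. In all, 5 of 24 lay above and 6 below. Among 15 cytokines tested, 2 lay above and 2 below: Il1b was at 5648 and 8068 CPM in untreated and at 4765, 523 and 742 CPM in TLI cells, Il12b at 47.8 and 40.4 CPM against 15.8, 0 and 0 CPM, Il18 at 44.5 and 27.6 CPM against 156, 51.9 and 81.2 CPM, and Il15 at 8.02 and 0.883 CPM against 34.2, 16.9 and 9.41 CPM. Over the 11 cytokines with a mean of at least 5 CPM, the median log2 ratio to the untreated mean was 0.71 in TLI pool 1. It was -0.635 and -0.64 in pools 3 and 4. The batch term had a median of -1.85 (log2) over the cytokines, and the median fitted log2 fold change was 0.57.

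Genes linked to tolerance were largely absent or overlapping. Il10, Ido1, Ido2, Nos2 and Aldh1a2 had 0 counts in all 5 libraries, below the limit of 3 counts that can be told from 0 (0.0904 to 0.156 CPM). Tgfb1 was at 23.9 and 17.8 CPM in untreated and at 34.4, 41.7 and 23 CPM in TLI cells. Lgals1 (galectin-1) was the member above in all TLI libraries, at 159 and 169 CPM against 509, 1542 and 1301 CPM (adjusted p = 0.110, edgeR's quasi-likelihood test), and Ahr, the aryl hydrocarbon receptor, the member below, at 231 and 372 CPM against 132, 73.8 and 73.5 CPM (adjusted p = 0.218, same test). Of 17 Toll-like receptor genes and adaptors 2 lay above and 2 below. Tlr4 had 0 counts in both untreated libraries and was at 11.4, 12.7 and 9.28 CPM in TLI cells (adjusted p = 0.228, same test).

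Targets of p53, which respond to DNA damage, lay on both sides. Of 27 tested, 0 passed the threshold, 4 lay above and 8 below both untreated libraries, and the median fitted log2 fold change was -0.31. Cdkn1a (p21) was at 79.5 and 95.1 CPM in untreated and at 160, 47.9 and 44.5 CPM in TLI cells, Mdm2 at 29.1 and 44.8 CPM against 35.0, 19.5 and 24.6 CPM, and Bax at 119 and 105 CPM against 100.5, 133 and 104 CPM. Ccng1 (cyclin G1) was above in all 3, at 24.7 and 23.5 CPM against 54.8, 74.4 and 89.0 CPM, and Ddb2, a damage sensor, below in all 3, at 32.4 and 51.8 CPM against 1.40, 0 and 0.0345 CPM. In the BCL2 family, 3 of 15 lay above and 4 below. The near-identical A1 genes, whose reads cannot be assigned with certainty, were below in all TLI libraries (Bcl2a1d, 1666 and 1509 against 1018, 1146 and 1014 CPM), and Mcl1 overlapped, at 477 and 372 CPM against 422, 604 and 460 CPM.

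Among growth and housekeeping lists, the median fitted log2 fold change was 0.59 for cell cycle genes, 0.17 for growth factor receptors and -0.06 for cell stress genes. The median log2 ratio of the cell cycle genes to the untreated mean was 0.62, -1.22 and -0.21 in TLI pools 1, 3 and 4. Of 30 cell cycle genes, 3 lay above and 2 below, with Mki67 at 171 and 122 CPM in untreated and 189, 115 and 127 CPM in TLI cells. Of 16 cell stress genes 3 lay above and 1 below, and the heat shock genes Hspa1a and Hspa1b followed batch, at 18.0 to 39.2 CPM in the 3 libraries of batch 1 and 322 to 704 CPM in batch 2. Of 11 growth factor receptors 1 lay above and 2 below, the latter being Kit (179 and 182 against 47.8, 84.6 and 15.7 CPM) and Flt3 (183 and 121 against 76.5, 35.1 and 28.1 CPM). All 3 TLI libraries lay above both untreated ones in 34 of 80 ribosomal protein genes and in 29 of 76 respiratory chain and ATP synthase genes, but the median log2 ratio to untreated cells was 0.11 and 0.21 in TLI pool 1 against 0.94 and 0.90 in pool 3 and 0.79 and 0.95 in pool 4, the medians of the batch term were 0.89 and 0.67, and the median fitted log2 fold changes were 0.01 and 0.26. Plasmacytoid DC genes had 1 of 10 members above and 4 below, with Siglech at 2.44 and 25.8 CPM in untreated and 0.680 CPM or less in TLI cells. Y-linked genes were present and Xist was at 0.312 CPM or less in all 5 libraries.

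Whether TLI had another effect in DC2 cells than in the other subsets was tested as the difference between the TLI effect in DC2 and the mean TLI effect in DC1a, DC1b and DC3 cells. It passed the threshold in 9 genes, 0.0459% of 19597 (edgeR's quasi-likelihood test, Benjamini-Hochberg adjusted), of which 6 are among the 12 genes above. The difference for Clec9a was 4.77 ± 0.44 (log2, SE) with an adjusted p of 4.57e-05. Clec9a was far more abundant in the other subsets, at 543 to 581 CPM in untreated and 340 to 593 CPM in TLI DC1a cells and at 250 to 277 CPM and 213 to 366 CPM in DC3 cells, and the level in TLI DC2 cells stayed below each of them. The difference for Cd180 was -2.63 ± 0.32 (adjusted p = 0.0019, same test). Untreated DC2 cells had the highest level of Cd180, 412 to 426 CPM against 62.4 to 134 CPM in the other untreated subsets, and in TLI cells DC2 (32.2 to 54.9 CPM) overlapped the others (32.5 to 97.9 CPM). Gstp2 and Cul4b (adjusted p = 2.28e-07 and 0.00593, same test) were at 0 counts in untreated DC2 cells alone: the other untreated subsets held 35.5 to 53.9 CPM of Gstp2 and 4.48 to 30.1 CPM of Cul4b, and the TLI libraries of all subsets 18.3 to 57.2 CPM and 4.74 to 43.3 CPM. For Ms4a6d, a tetraspan gene of myeloid cells, the difference was -4.64 ± 0.68 (adjusted p = 0.0175, same test), although it was higher in TLI libraries of every subset. It was at 187 and 245 CPM in untreated and 404, 689 and 699 CPM in TLI DC2 cells. DC1b cells held 64.6 to 73.8 CPM in untreated and 329 to 400.5 CPM in TLI libraries. DC1a went from 0.139 to 0.386 CPM to 3.11 to 8.09 CPM and DC3 from 0 counts to 4.99 to 21.6 CPM, both near the floor in untreated cells.

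**Figure D4:**
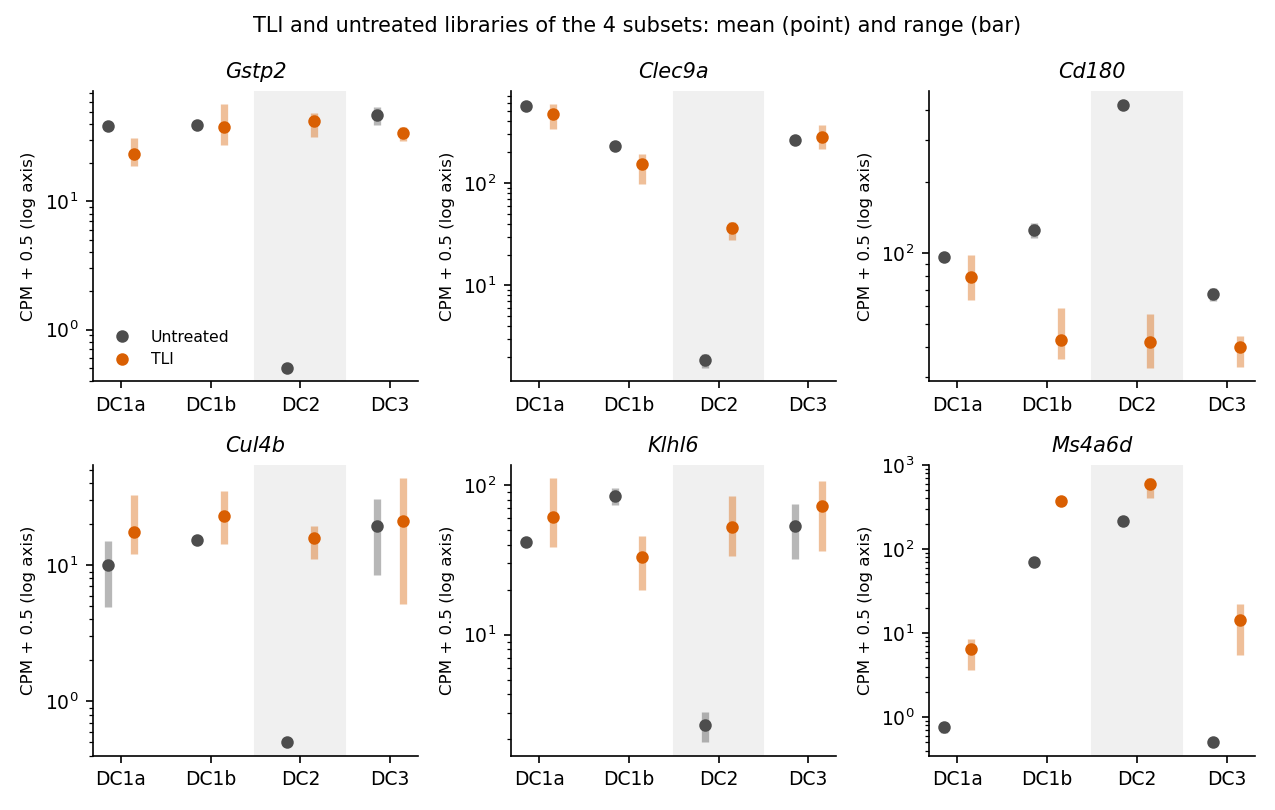
CPM + 0.5 (log axes) of 6 genes in untreated (grey, n = 2 for each subset) and TLI libraries (orange, n = 3 for DC2 and 4 for the other subsets) of the 4 subsets, with the mean as a point, the range as a bar and DC2 shaded. In Gstp2, Cul4b, Klhl6 and Clec9a the untreated DC2 libraries lie below all other groups, in Cd180 they lie above them, and in Ms4a6d they lie below the TLI DC2 libraries but above the other untreated subsets.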

How the data were processed

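RNA of sorted spleen dendritic cells was copied and amplified with the SMARTseq v4 kit for small inputs, and libraries were made with the KAPA HyperPlus kit. According to the labels the cells were sorted straight into reaction buffer, while the methods of the article describe a lysis step and RNA extraction. The submitters' processing notes name Trimmomatic, HISAT2, StringTie and DESeq2 with assembly GRCm38. The values the authors deposited are estimated counts, whole numbers per gene that they derived from transcript coverage, neither scaled for depth nor for length. No read assignment between copies, overlapping genes or strands can be checked from them, and amplified reads are not independent molecules, so floors and intervals cover counting error only. The 47729 identifiers were matched to GENCODE M21 (GRCm38), which holds 47310 of them. The design had assumed plain counts, and the estimated counts were used unchanged.

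CPM are counts over the library total. The main test was edgeR's quasi-likelihood test (edgeR 4.0.16, R 4.3.3) on TMM-scaled counts of all 23 libraries in 8 groups of subset and treatment, with batch as a term and edgeR's filter on low counts, which left 19597 genes. Since untreated libraries are all of batch 1, the batch term is estimated from the TLI pools of all subsets, and it is assumed to be equal in them. P-values were adjusted by Benjamini-Hochberg over all genes tested, with a threshold of 0.05. Alternatives were DESeq2 1.42.0, DESeq2's size factors, no filter, at least 10 counts in every DC2 library, no batch term, the 5 DC2 libraries alone, batch 1 alone, TLI pools of batch 2 alone in DC2, each DC2 library left out, and limma 3.58.1 (voom) with and without the pool as a random replicate block. The scripts were tested on simulated data. Tables and sequences were handled in Python 3.11.15.

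The members and the gene lists were chosen with earlier results of these data known. Genes are named by a rule: the 10 largest fitted changes in each direction among genes past the threshold with a mean of at least 5 CPM and no overlap between groups, filled up to 10 by the smallest p, list members past the threshold, defining markers, and the 5 smallest adjusted p-values of the difference between subsets. A group at 3 counts or fewer in every library was taken as at the floor, and folds against it are lower bounds. The article does not report the TLI libraries.

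Pools are numbered within each treatment, and TLI pool 1 and untreated pool 1 are different mice, so numbers do not pair the treatments. Residuals of DC2 libraries and other libraries of their pool correlated at -0.162 to 0.0139 over 15 pairs.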

Additional observations from a re-analysis of the deposited data

Results flagged for a closer look

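For 9 genes the TLI effect in DC2 cells differed from the mean TLI effect in DC1a, DC1b and DC3 cells in a test of the difference itself (edgeR's quasi-likelihood test, Benjamini-Hochberg adjusted). The differences, in log2 units and DC2 minus the others, were 13.4 for Gstp2, 4.77 for Clec9a, -2.63 for Cd180, 11.1 for Cul4b and -4.64 for Ms4a6d. Gstp2 and Cul4b were at 0 counts in untreated DC2 cells, and Ms4a6d was at 0 counts in untreated DC3 cells, so the fitted sizes of these 3 depend on how the fit treats 0 and are no measure of size. The 4 other genes, named because they are the rest of the 9, were Klhl6 with 4.81 ± 0.75 (SE, adjusted p = 0.0233), Clec12a with 1.88 ± 0.31 (adjusted p = 0.0317), Ahnak with 2.66 ± 0.44 (adjusted p = 0.0350) and Slc25a45 with -7.91 ± 1.33 (adjusted p = 0.0350), all by the same test. Ahnak, a large scaffold protein, was at 78.7 and 130 CPM in untreated and at 318, 489 and 350 CPM in TLI DC2 cells, while the range in DC1b cells was 485 to 552 CPM in untreated and 127 to 225 CPM in TLI libraries. Clec12a in DC1b cells was at 1272 to 1539 CPM in untreated and 468 to 669 CPM in TLI libraries. For the difference between subsets the number of genes was 7 to 52 when each DC2 library was left out, the highest without TLI pool 1.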

How the results depend on the processing

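The counts of genes depended on the test and on the libraries. Against 8 genes higher and 4 lower, DESeq2 gave 584 and 292, no filter 55 and 17, no batch term 4 and 3, batch 1 alone 4 and 3, TLI pools of batch 2 alone in DC2 28 and 53, and at least 10 counts in every DC2 library 11 and 9. The 5 DC2 libraries alone gave 0 and 0 by edgeR's test, with the batch term (632 genes at an unadjusted p under 0.05) and without it (1062). Leaving out each DC2 library gave 5 to 20 higher and 1 to 27 lower, with 16 and 27 without TLI pool 1, 20 and 5 without untreated pool 2, 8 and 2 without untreated pool 1, 7 and 1 without TLI pool 3, and 5 and 1 without TLI pool 4. Against 9 genes that differed between subsets, DESeq2 gave 708, no filter 36, and leaving out each DC2 library 7 to 52. With the pool as a random replicate block limma called 63 genes higher, 100 lower and 53 that differed between subsets, and without the block 63, 99 and 53. The block therefore changed almost nothing (correlation within pools 0.00267), and limma differed from edgeR with or without it. DESeq2's size factors left the counts at 8 and 4, and 12 for the difference. None of the 12 genes past the threshold changed direction under an alternative in which it was tested, nor did the 8 named without passing it. Members named only as part of a list were not followed one by one. Of 188 values of the 12 genes under the alternatives, 110 stayed on their side of the threshold and 78 did not. Of 478 list medians under the alternatives, 101 moved by more than the spread between the TLI libraries and 377 did not. With no batch term the median of the MHC class II genes went from 0.01 to -0.75, with TLI pools of batch 2 alone in DC2 that of the costimulatory and inhibitory ligands from -0.46 to -1.81, and with batch 1 alone that of the type I interferon-stimulated genes from 1.17 to 0.61. The cause of these changes was not tested. The common coefficient of variation was 1.08 with 2 untreated and 3 TLI libraries, the smallest change that could be detected was not measured, and batch can be separated from treatment only through TLI pool 1 or the batch term.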
